A study of Mus musculus with 4 samples.

Results

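Smooth muscle contractile genes encode the thin filament and myosin parts that smooth muscle cells and myofibroblasts use to generate force. In these cells actin filaments carry tropomyosin, calponin, transgelin and leiomodin, and the filaments slide when myosin light chain kinase phosphorylates the regulatory light chain of myosin II. Many of these genes are known targets of serum response factor (SRF) and its myocardin family cofactors, which bind CArG boxes. Cultured fibroblasts often express a share of this program, with *Acta2* and *Tagln* as the usual markers of the myofibroblast state.

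The genes described here are 10 members chosen by symbol, *Acta2*, *Actg2*, *Tagln*, *Cnn1*, *Myl9*, *Lmod1*, *Tnnt2*, *Mylk*, *Tpm1* and *Tpm2*, out of 23924 genes listed in the expression matrix. All 10 are listed, and all 10 passed the filter on low values. The matrix holds FPKM, which are fragment numbers divided by gene length and by library size, for 2 WT and 2 TG libraries. The cells are tail tip fibroblasts of the line C57BL/6J-TgBAC8-2087, from males of a single litter. TG cells are Tg2087/+, with an X-inactivation center transgene that carries *Xist* under its own promoter in an autosome, and WT cells are their +/+ littermates. Cells of both genotypes were immortalized with SV40 large T and are tetraploid, and they grew in the same medium with serum. Nothing in the sources says that the 2 libraries per genotype are separate animals or cultures, so the p-values measure only the spread between these libraries.

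The whole reads behind the FPKM values could be worked out, and the libraries held from 9465712 to 14639946 reads. *Xist* was listed at 0 and 0.108 FPKM in WT and at 2.31 and 2.28 FPKM in TG, the order the labels give. Of 11 fibroblast markers 8 were tested, with *Vim* between 2147 and 2547 FPKM and *Col1a1* between 406.6 and 867.3 FPKM. The other 3 were under the minimum: *Lum* was at 0 in all 4 libraries, *Dcn* did not exceed 0.878 FPKM and *Fap* did not exceed 0.0802 FPKM. *Pdgfra* lay between 0.0999 and 1.13 FPKM. The endothelial markers *Pecam1*, *Cdh5*, *Kdr* and *Tek* summed to between 0.036 and 0.567 FPKM. Of 10 striated muscle markers, *Myod1*, *Myog*, *Myf5* and *Ckm* were at 0 in all 4 libraries. *Acta1* lay between 5.07 and 11.1 FPKM and *Mylpf* between 0.622 and 3.57 FPKM. That list summed to 13.2 and 11.6 FPKM in WT against 6.95 and 8.78 in TG. Of 4 immune markers, *Ptprc*, *Adgre1* and *Cd3e* were at 0 in all 4 libraries, while *Cd68* lay between 5.12 and 12.1 FPKM. Among markers of mature smooth muscle, *Myh11*, the smooth muscle myosin heavy chain, lay between 0 and 0.376 FPKM, and *Kcnmb1* and *Des* did not exceed 0.435 FPKM, while *Smtn* (smoothelin) lay between 92.0 and 123.7 FPKM and *Lmod1* between 14.7 and 45.8 FPKM. The genes are named here for their known role in smooth muscle.

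The 6 actin genes encode nearly identical proteins, and their coding sequences differ at many positions. The first 30 coding bases are shown as an example of such differences, through which a read can be assigned to an isoform. They are written 5′ to 3′ from the GENCODE M21 transcripts (GRCm38), with the start codon in capitals.
Acta2 (smooth muscle alpha actin): ATGtgtgaagaggaagacagcacagccctg
Actg2 (smooth muscle gamma actin): ATGtgtgaagaagagaccaccgcccttgtg
Acta1 (skeletal muscle actin): ATGtgcgacgaagacgagaccaccgctctt
Actc1 (cardiac actin): ATGtgtgacgacgaggagaccaccgctttg
Actb (cytoplasmic beta actin): ATGgatgacgatatcgctgcgctggtcgtc
Actg1 (cytoplasmic gamma actin): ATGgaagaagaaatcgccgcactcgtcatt

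Over the aligned coding bases, *Actg2* was 84.4% identical to *Acta2*, *Acta1* 85.4% and *Actb* 83.2%. Of all 50-base stretches of the protein-coding transcripts of *Acta2*, 0.326% also occur in transcripts of another gene, and of 100-base stretches 0%. For *Actg2* and the other 8 members the share was 0% at both lengths. For *Actg1* it was 45.6% of 50-base stretches, so its level is uncertain here. *Myl12a*, *Myl12b*, *Myl6* and *Tpm3* also share between 16.7% and 40.0% of their 50-base stretches with other genes. *Cnn3* shares 14.1%, *Actb* 12.2% and *Tpm4* 12.1%, and of 100-base stretches 1.24%, 0.9% and 7.64%. The read length and the handling of reads that map to several places are not given in the sources used here.

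For all 10 contractile genes both TG values lay under both WT values, an order that 20.3% of the 11524 tested genes showed. TG was compared with WT by limma on log2(FPKM + 0.5), and a gene was called at a Benjamini-Hochberg adjusted p under 0.01 with a log2 fold change of 1 or more in either direction. By this rule 5 of the 10 fell in TG, *Actg2*, *Cnn1*, *Lmod1*, *Tnnt2* and *Myl9*, and 0 rose, where 0.469% of all tested genes were called lower and 0.607% higher. At an adjusted p under 0.05 *Acta2* joined them, for 6 of 10 against 1.05% of all tested genes. The median log2 fold change was -1.16 over the 10 genes and 0.07 over all tested genes. The genes were chosen with earlier results of these libraries known, so these counts describe them and are not independent support. In bulk RNA, fewer cells that express a gene and less RNA per cell cannot be told apart.

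Together the 10 genes took 2.45% and 2.50% of all reads in WT 1 and WT 2, and 1.26% and 1.42% in TG 1 and TG 2. The groups did not overlap, and the WT libraries were alike in this share although WT 2 had 1.55 times the reads of WT 1.

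**Figure D1:**
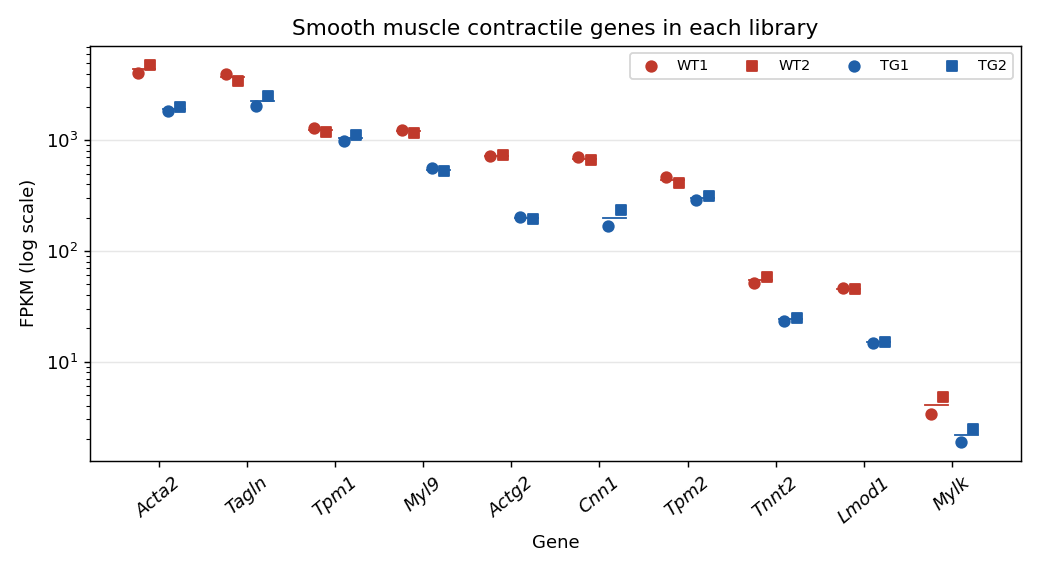
FPKM of the 10 contractile genes in each library, on a log axis, with WT in red, TG in blue, circles for replicate 1, squares for replicate 2 and short lines for the mean of 2 libraries. The TG points lie below the WT points for all 10 genes, with levels from 4797 FPKM for *Acta2* in WT 2 down to 1.88 FPKM for *Mylk* in TG 1.

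By mean FPKM the order in WT was *Acta2* (4414), *Tagln* (3687), *Tpm1* (1241), *Myl9* (1209), *Actg2* (723), *Cnn1* (681), *Tpm2* (435), *Tnnt2* (54.9), *Lmod1* (45.5) and *Mylk* (4.08). The values of *Tpm1* and *Myl9* overlapped, so these neighbours are not ordered, and the gap of *Acta2* to *Tagln* was within the sum of their SDs (542 and 329). In TG *Tagln* (2276) stood above *Acta2* (1924), again with a gap within the sum of their SDs (336 and 103). *Tpm2* (301) stood above *Cnn1* (200) and *Actg2* (198) in TG, and the last 2 could not be ordered.

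*Acta2*, the smooth muscle alpha actin gene, was the most abundant of the 10 genes in both WT libraries. It lies on chromosome 19 of GRCm38 (RefSeq), from 34240336 to 34255585. WT 1 held 4031 FPKM and WT 2 held 4797, while TG 1 held 1851 and TG 2 held 1996, from 92455, 170169, 53482 and 53510 reads. Among all genes it ranked 7 and 6 in WT, and 20 and 19 in TG. The mean was 56.4% ± 5.83 lower in TG (SD, propagated from 2 libraries per genotype). The log2 fold change was -1.19 (95% confidence interval -1.67 to -0.72), and the adjusted p of 0.0139 from limma missed the threshold of 0.01. Fitted by voom to the recovered reads, the change was -1.26 (adjusted p = 4.21e-07), which would pass it.

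*Actg2*, the gamma actin of enteric smooth muscle, had the lowest log2 fold change of the 10 genes with all 4 libraries, next to *Cnn1*, from which it did not differ beyond the error (a gap of 0.08 with an SE of 0.26). Without TG 2 the order turned, with -2.01 for *Cnn1* and -1.84 for *Actg2*. It lies on chromosome 6 from 83512909 to 83536251. WT 1 and WT 2 had 713 and 733 FPKM, and TG 1 and TG 2 had 201.9 and 194 FPKM. The libraries of a genotype differed by far less than the genotypes, with means of 723 ± 14.1 and 198 ± 5.61 FPKM (SD, n = 2). *Actg2* fell 3.65-fold, or -1.87 on the log2 scale (95% confidence interval -2.25 to -1.48, adjusted p = 0.0004 from limma).

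The cytoplasmic actins were not called. *Actb*, the main actin of non-muscle cells, had 6384 and 6507 FPKM in WT against 6462 and 6179 in TG. The groups overlapped, and the log2 fold change of -0.03 had an adjusted p of 0.962. *Actg1* had 53.5 and 53.0 FPKM in WT against 127.6 and 65.8 in TG (log2 fold change 0.78, adjusted p = 0.139), with the uncertainty of shared reads given above. *Acta1* was low, at 11.1 and 9.75 FPKM in WT against 5.07 and 5.21 in TG (log2 fold change -0.95, adjusted p = 0.0374). *Actc1* did not exceed 2.45 FPKM.

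Since FPKM is per length, the actins can be summed. *Acta2* and *Actg2* made up 42.4% and 45.7% of the actin FPKM in WT, and 23.7% and 25.9% in TG. *Actb* made up 57.0% and 53.8% in WT, and 74.7% and 73.2% in TG. *Actg1* made up 0.458% in WT and 1.13% in TG in the means. Its level is uncertain because of shared stretches, so the shares of all actins are uncertain too. Summed actin FPKM was 11648 ± 643 in WT and 8544 ± 147 in TG (SD, n = 2), while the *Actb* values overlapped between the genotypes. Within the muscle pair, *Actg2* stood at 0.177 and 0.153 of *Acta2* in WT but at 0.109 and 0.0972 in TG. With 2 values per genotype, 0.333 is the smallest p an exact two-sided permutation test allows, and it is the value obtained for the smooth muscle share, a difference of -19.2 points between TG and WT.

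The actin filament of smooth muscle is bound by calponin, transgelin and leiomodin. *Cnn1*, which encodes the smooth muscle calponin, is on chromosome 9 from 22099221 to 22109221. Its FPKM was 700.3 and 661.1 in WT and 168.2 and 232 in TG. The TG libraries differed from each other more than the WT libraries did, but both lay far below WT. The log2 fold change was -1.78 (95% confidence interval -2.22 to -1.34, adjusted p = 0.00114 from limma).

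The other calponins were not called. *Cnn2* had 961.5 and 857.2 FPKM in WT against 903.7 and 838.7 in TG, so its groups overlapped (log2 fold change -0.06, adjusted p = 0.900). *Cnn3* was 197.2 and 168.3 FPKM in WT against 135.4 and 137.3 in TG (adjusted p = 0.221). *Cnn1* therefore took 37.7% and 39.2% of calponin FPKM in WT but 13.9% and 19.2% in TG. This share carries the uncertainty of the shared stretches of *Cnn3* given above.

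*Tagln* (SM22 alpha), which binds and stiffens actin filaments, was the second of the 10 genes by mean level in WT and the first in TG. It lies on chromosome 9 from 45929628 to 45936058. Its FPKM was 3920 and 3455 in WT and 2038 and 2514 in TG. Its mean level was 38.3% ± 10.6 lower in TG (SD, propagated), and the log2 fold change of -0.70 (95% confidence interval -1.19 to -0.21) had an adjusted p of 0.111 from limma, so it was not called. The paralog *Tagln2* stood at 855.9 and 947.8 FPKM in WT against 826.9 and 837.5 in TG (log2 fold change -0.11). The *Tagln* gene body overlaps that of *Pcsk7*, which lay between 4.60 and 7.59 FPKM, and whether the counting used the strand is not stated.

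*Lmod1*, a leiomodin that nucleates actin filaments in smooth muscle, is on chromosome 1 from 135324813 to 135368065. WT held 45.8 and 45.1 FPKM (1644 and 2506 reads), and TG held 14.7 and 15.1 FPKM (666 and 635 reads), so the groups lay far apart. Its log2 fold change was -1.57 (95% confidence interval -1.97 to -1.18, adjusted p = 0.0012 from limma). *Tmod3*, a capping protein of the same family, had 16.8 and 18.9 FPKM in WT against 23.4 and 20.7 in TG (log2 fold change 0.30, adjusted p = 0.439). The remaining 5 leiomodins and tropomodulins did not reach the minimum level.

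Markers of smooth muscle are often ordered by when they appear in differentiation, and the changes are given here in that order. The early markers *Acta2* and *Tagln* had log2 fold changes of -1.19 and -0.70. Of the intermediate markers, *Cnn1* had -1.78, while *Cald1*, the actin-binding caldesmon, had -0.13 (adjusted p = 0.774) with 642.2 and 682 FPKM in WT against 675.1 and 545.4 in TG. Of the late markers, *Lmod1* had -1.57, *Smtn* (smoothelin) had -0.18 (adjusted p = 0.657 from limma), and *Myh11* did not reach the minimum level. *Cald1* and *Smtn* were chosen after their values were seen, and a gene-level FPKM does not tell splice forms apart. No trend over the stages is therefore read from these values. Within each library, *Cnn1* stood at 0.179 and 0.191 of the FPKM of *Tagln* in WT and at 0.0825 and 0.0923 in TG.

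*Myl9* encodes the regulatory light chain that is phosphorylated to start smooth muscle contraction. It lies on chromosome 2 from 156775408 to 156781657. Its level was 1245 and 1172 FPKM in WT against 559.6 and 524.6 in TG, a mean 55.1% ± 2.79 lower (SD, propagated). The log2 fold change was -1.16 (95% confidence interval -1.56 to -0.75, adjusted p = 0.00751 from limma).

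The non-muscle regulatory light chains had smaller differences. *Myl12a* had 1208 and 1180 FPKM in WT against 806.3 and 947.3 in TG (log2 fold change -0.45, adjusted p = 0.228). *Myl12b* had 109.4 and 112.4 FPKM in WT against 105.2 and 139.2 in TG. *Myl9* made up 48.6% and 47.6% of these 3 genes in WT and 38.0% and 32.6% in TG. This share carries the uncertainty of the shared stretches of *Myl12a* and *Myl12b* given above. The non-muscle heavy chain *Myh9* stood at 506.9 and 483.7 FPKM in WT against 316.8 and 348.7 in TG (log2 fold change -0.57, adjusted p = 0.104). *Myl6b*, an essential light chain, was higher in both TG libraries, at 19.7 and 18.2 FPKM against 9.76 and 7.09 FPKM (log2 fold change 1.14, adjusted p = 0.0172).

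*Mylk*, the kinase that phosphorylates the regulatory light chain, was the lowest of the 10 genes. It spans 34745199 to 35002436 of chromosome 16. It had 244 and 537 reads in WT and 172 and 207 reads in TG, or 3.37, 4.79, 1.88 and 2.44 FPKM. The log2 fold change was -0.77 with a wide 95% confidence interval, from -1.42 to -0.12, and the adjusted p was 0.180 from limma. Of the kinase and phosphatase genes outside the 10, *Ppp1r14a* (CPI-17), which inhibits myosin phosphatase, fell from 22.4 and 28.8 FPKM to 5.05 and 9.47 FPKM (log2 fold change -1.80, adjusted p = 0.00665 from limma). It rested on 81 and 161 reads in WT and 23 and 40 in TG, and with voom it was not called (log2 fold change -1.98, adjusted p = 0.014). The phosphatase subunits *Ppp1cb* and *Ppp1r12a* and the kinases *Rock1* and *Rock2* had log2 fold changes between -0.19 and 0.45, and none was called.

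*Tnnt2*, the cardiac troponin T, is a striated muscle protein that some smooth muscle-like cells also express. It is on chromosome 1 from 135836315 to 135852268, in the same region as *Lmod1*. WT held 51.2 and 58.6 FPKM (535 and 947 reads), and TG held 23.2 and 25.0 FPKM (305 reads in each library), with no overlap. It fell 2.28-fold by the means, with a log2 fold change of -1.17 (95% confidence interval -1.57 to -0.77, adjusted p = 0.00665 from limma). Of its partners in the troponin complex, *Tnnc1*, the calcium-binding subunit, lay between 1.47 and 5.91 FPKM, and the inhibitory subunits *Tnni1*, *Tnni2* and *Tnni3* did not exceed 1.11 FPKM. *Lmod1* stood at 0.894 and 0.770 of the FPKM of *Tnnt2* in WT and at 0.635 and 0.605 in TG.

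Tropomyosins wrap the actin filament, and *Tpm1* and *Tpm2* supply the muscle isoforms as well as some non-muscle ones. *Tpm2*, on chromosome 4 from 43513726 to 43523583, had 463.7 and 406.4 FPKM in WT against 290.9 and 311.3 in TG. The log2 fold change of -0.53 (95% confidence interval -0.92 to -0.13) had an adjusted p of 0.134 from limma. *Tpm1*, on chromosome 9 from 67022590 to 67049672, had 1292 and 1189 FPKM in WT against 985.1 and 1114 in TG. Its groups did not overlap but came close, and the 95% confidence interval of its log2 fold change, from -0.67 to 0.18, includes 0.

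The mainly non-muscle tropomyosins *Tpm3* and *Tpm4* had log2 fold changes of 0.02 and -0.23. *Tpm1* and *Tpm2* took 71.0% and 69.5% of tropomyosin FPKM in WT and 66.2% and 69.5% in TG, so TG 2 and WT 2 were the same to 3 digits. The sum includes *Tpm3* and *Tpm4*, which share stretches with other genes as given above. *Tpm1* stood at 2.53 and 2.43 of the FPKM of *Tpm4* in WT and at 2.27 and 2.64 in TG. A gene-level FPKM does not tell muscle from non-muscle splice forms of *Tpm1* or *Tpm2*.

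**Figure D2:**
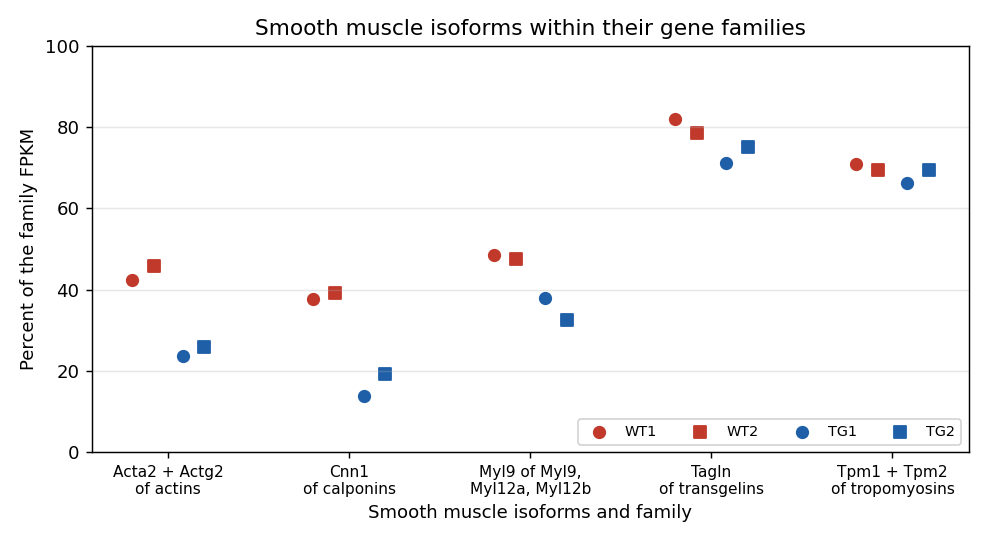
Percent of the FPKM of a gene family taken by its smooth muscle isoforms, for each library, with WT in red and TG in blue. Sums that include *Actg1*, *Actb*, *Cnn3*, *Myl12a*, *Myl12b*, *Tpm3* or *Tpm4* carry the uncertainty of stretches shared with other genes. The actin, calponin and regulatory light chain shares are lower in both TG libraries, from 44.0% to 24.8%, 38.4% to 16.6% and 48.1% to 35.3% in the means, while the tropomyosin shares of 70.3% and 67.8% lie close together.

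In order of log2 fold change the 10 genes ran from *Actg2* (-1.87) and *Cnn1* (-1.78) through *Lmod1* (-1.57), *Acta2* (-1.19), *Tnnt2* (-1.17) and *Myl9* (-1.16) to *Mylk* (-0.77), *Tagln* (-0.70), *Tpm2* (-0.53) and *Tpm1* (-0.24). The 95% confidence intervals of neighbours in this order overlapped in every case, so the order of neighbours is not resolved. The intervals of *Actg2* and *Cnn1* lie below those of *Tagln*, *Tpm2* and *Tpm1*. *Actg2* stood at 0.182 and 0.212 of the FPKM of *Tagln* in WT and at 0.0991 and 0.0772 in TG.

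**Figure D3:**
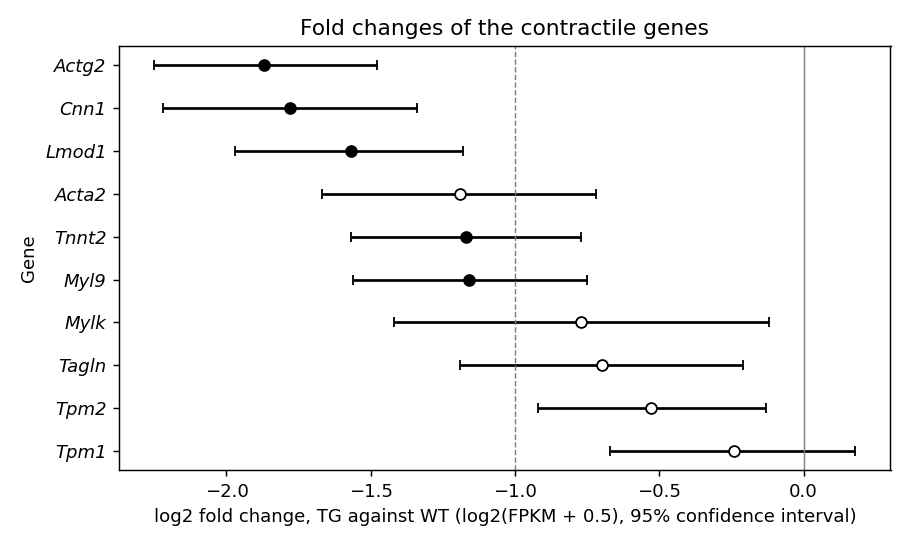
Log2 fold change of each gene between TG and WT on log2(FPKM + 0.5), with 95% confidence intervals from limma and filled points for the 5 genes called lower. The dashed line marks a log2 fold change of -1, and the interval of *Tpm1* alone crosses 0.

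Other genes of the contractile apparatus and its regulators came from lists of families, markers and cofactors. Of 83 such genes outside the 10, 65 were tested, and 1 (1.54%) was called lower, *Ppp1r14a*, and 0 higher, where 0.469% of all tested genes were called lower and 0.607% higher. Voom called 0 of the 65 in either direction, against 1.29% of all genes lower and 1.07% higher. The median log2 fold change of the 65 genes was -0.16. At an adjusted p under 0.05 with the same size of change there were 1 lower and 1 higher, *Myl6b*, where 1.05% of all tested genes were called lower and 1.99% higher. Both TG libraries lay below both WT libraries for 25 of them (38.5%) and above for 11 (16.9%), against 20.3% and 30.2% of all tested genes.

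Of the 9 tested genes among 13 further smooth muscle markers, limma called *Ppp1r14a* lower, where 0.469% of all tested genes were called lower. Against 20.3% of all tested genes, 6 of the 9 had both TG values below both WT values. Besides *Ppp1r14a* these were *Synm* (synemin, log2 fold change -0.91), *Nexn* (-0.80), *Synpo2* (synaptopodin 2, -0.60), *Pdlim7* (-0.22) and *Csrp1* (-0.19). *Synm* had 1.04 and 0.823 FPKM in WT against 0.239 and 0.281 in TG (adjusted p = 0.277), close to the minimum level. *Nexn*, an actin-binding protein of muscle, had 37.8 and 44.1 FPKM in WT against 27.9 and 19.2 in TG (adjusted p = 0.0672).

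Of 10 genes for actin cross-linking and anchoring, limma called 0, against 0.469% of all tested genes lower and 0.607% higher, and voom called 0. At an unadjusted p under 0.05 limma had 2 lower and 1 higher, against 793 and 1462 of all 11524 tested genes. Both TG values lay below both WT values for 6 of the 10, against 20.3% of all tested genes. These 6 were *Nexn*, *Lpp* (log2 fold change -0.51), *Pdlim5* (-0.36), *Flna* (filamin, -0.29), *Pdlim7* and *Actn1* (-0.17). *Actn4*, an alpha-actinin, was higher in both TG libraries (log2 fold change 0.55, adjusted p = 0.114), and *Vcl* (vinculin) had -0.04.

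The known regulators of these genes had the following RNA levels. *Srf* had 72.5 and 82.9 FPKM in WT against 60.6 and 64.2 in TG (log2 fold change -0.31, adjusted p = 0.364). Its actin-sensing cofactors *Mrtfa* and *Mrtfb* both differed by a log2 fold change of -0.42, with adjusted p-values of 0.246 and 0.423. *Myocd*, the myocardin of mature smooth muscle, lay between 0.234 and 0.784 FPKM and did not reach the minimum level. *Klf5* had 34.6 and 40.7 FPKM in WT against 51.7 and 65.7 in TG (log2 fold change 0.63, adjusted p = 0.104). Of 13 tested genes in this list 0 were called in either direction by limma or voom, against 0.469% lower and 0.607% higher over all tested genes by limma. At an unadjusted p under 0.05 limma had 2 lower and 2 higher, against 793 and 1462 of all 11524 tested genes. Against 20.3% of all tested genes, 6 of the 13 had both TG values below both WT values. These were *Srf*, *Mrtfa*, *Mrtfb*, *Klf4* (log2 fold change -0.60), *Elk3* (-0.45) and *Elk1* (-0.07). In *Klf5* and *Gata6* (1.14) both lay above, as in 30.2% of all tested genes.

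**Figure D4:**
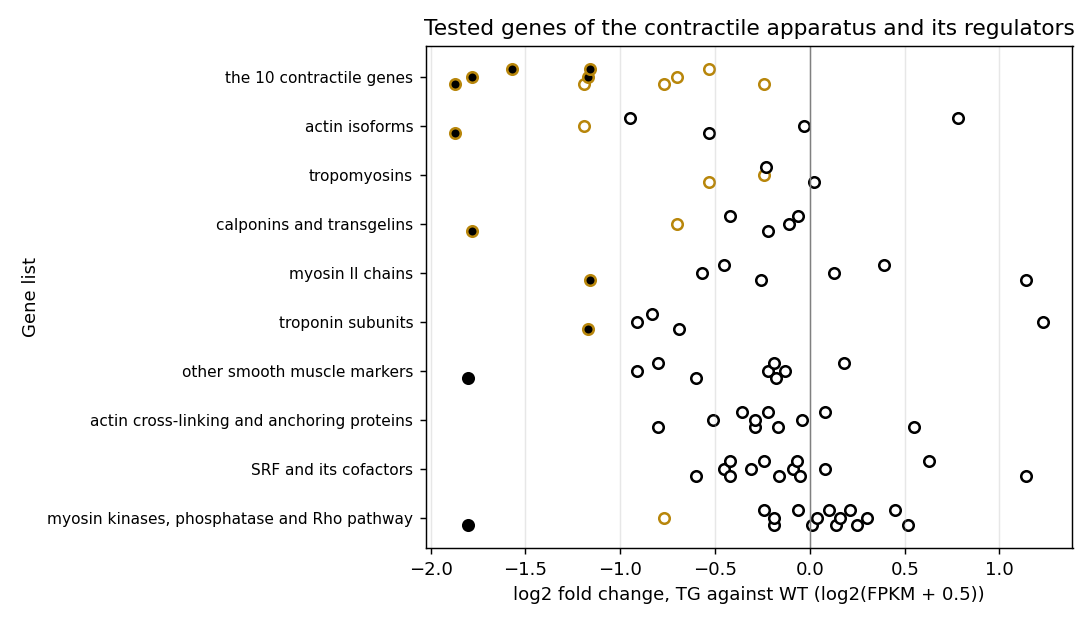
Log2 fold changes of all tested genes in each list, TG against WT on log2(FPKM + 0.5), with filled points for genes called at an adjusted p under 0.01 and a change of at least 1 in size, and gold rims for the 10 contractile genes. Most points outside the 10 genes lie within 1 log2 unit of 0.

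CArG boxes were searched in the RefSeq promoters of GRCm38.p6, from 250 bases before to 50 bases after the start of transcription. The start used can lie inside the gene span given above. *Acta2*, on the minus strand, has a span that ends at 34255585, inside the bases searched. For *Mylk* the bases before the start are 34784700 to 34784949, inside its span from 34745199, whose outer start was not searched. A promoter was given for 8 of the 10 genes, with the exception of *Actg2* and *Tagln*. The *Myl9* promoter held 1 full CArG box, 161 to 152 bases before the start, where 1.61% of the promoters of tested genes hold 1 or more. The pattern reads the same on both strands. Boxes with 1 G or C in the A/T core were found in *Acta2* (84 to 75 and 34 to 25 bases before the start) and again in *Myl9* (99 to 90 bases), where 10.6% of the promoters of tested genes hold a full box or such a box. The other 6 promoters held neither in this window. Both sequences with a match are shown for the 250 bases before the start, 5′ to 3′ on the strand of the gene, with the boxes in capitals.
Acta2, chr19:34255374-34255623, minus strand: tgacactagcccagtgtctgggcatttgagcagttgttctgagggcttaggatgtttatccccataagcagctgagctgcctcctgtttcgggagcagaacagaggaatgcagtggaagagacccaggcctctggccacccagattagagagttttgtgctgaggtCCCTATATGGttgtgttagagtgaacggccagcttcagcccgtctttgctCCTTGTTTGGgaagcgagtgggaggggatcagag
Myl9, chr2:156775214-156775463, plus strand: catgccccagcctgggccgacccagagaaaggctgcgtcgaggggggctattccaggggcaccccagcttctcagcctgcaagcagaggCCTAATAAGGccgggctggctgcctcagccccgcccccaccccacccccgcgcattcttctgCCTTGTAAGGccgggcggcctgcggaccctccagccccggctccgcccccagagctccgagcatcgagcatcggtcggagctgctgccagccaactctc

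Full boxes also occurred in the promoters of 9 of 69 other listed genes. Limma called 0 of these 9, against 0.469% of all tested genes lower and 0.607% higher. At an unadjusted p under 0.05 limma had 1 lower and 1 higher, against 793 and 1462 of all 11524 tested genes. Voom called 0 of these 9 genes too. Their log2 fold changes were -0.95 for *Acta1*, -0.53 for *Actc1*, -0.31 for *Srf*, -0.24 for *Fhl1*, -0.06 for *Cnn2*, -0.05 for *Fhl2*, -0.04 for *Vcl*, 0.39 for *Myl6* and 0.78 for *Actg1*. A match of these letters describes the sequence and is not a measured binding site.

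The 10 genes lie on 7 chromosomes. Chromosome 9 carries *Cnn1*, *Tagln* and *Tpm1*, which are 23.8 Mb and 21.1 Mb apart, and chromosome 1 carries *Lmod1* and *Tnnt2*, 468 kb apart and both called lower. The paper linked the transgene to chromosome 1 by DNA FISH and reported lower expression of *Lmod1* and *Tnnt2* in TG. It placed both genes in a repressed cluster and measured how far their segments lay from X-inactivation center signals in the nucleus. From this the paper proposes that *Xist* RNA silences chromosome 1 sequences that lie close by. Any part of the chromosome 1 location in the change of these genes was not tested here. Of 132 other tested genes within 500 kb of any of the 10, 1 was called lower and 0 higher, against 0.469% and 0.607% of all tested genes. It is *Tln2*, which encodes a talin that links integrins to actin, next to *Tpm1*, with 12.9 and 13.9 FPKM in WT against 3.70 and 3.85 in TG (log2 fold change -1.70, adjusted p = 0.0022 from limma). The neighbours of *Tagln* and *Tpm2* had median log2 fold changes of -0.28, and those of the other 8 genes between -0.09 and 0.10. *Tpm2* overlaps *Car9*, which lay between 0.453 and 5.79 FPKM, far below *Tpm2*.

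Of 8 markers of pericytes and vascular smooth muscle 4 were tested, *Mcam*, *Cspg4*, *Notch3* and *Rgs5*, and all 4 were lower in both TG libraries, against 20.3% of all tested genes. By limma 0 were called and 3 were lower at an unadjusted p under 0.05, as were 793 of all 11524 tested genes. Of these 4 markers voom called *Mcam* lower (log2 fold change -1.03, adjusted p = 9.80e-04). Their list summed to 66.3 and 52.7 FPKM in WT against 30.6 and 32.5 in TG, with *Mcam* at 50.8 and 38.0 FPKM in WT against 21.5 and 23.3 in TG (adjusted p = 0.0258). *Kcnj8* and *Abcc9*, which mark pericytes, were at 0 in all 4 libraries. The fibroblast markers summed to 6007 and 5596 FPKM in WT against 5642 and 5192 in TG. Against 20.3% and 30.2% of all tested genes, 5 of the 8 tested markers were lower and 2 higher in both TG libraries. Among them *Pdgfrb* differed by a log2 fold change of -0.96 (adjusted p = 0.0165) and *Col1a1* of -0.82 (adjusted p = 0.0491), while *Vim* had 0.15 and *Pdgfra* 1.08 (adjusted p = 0.218), with 0.0999 and 0.307 FPKM in WT against 0.823 and 1.13 in TG. Voom called *Pdgfrb* lower (log2 fold change -1.03, adjusted p = 1.66e-04). *Krt18*, a keratin of simple epithelia, rose from 1.10 and 2.24 FPKM to 11.5 and 12.2 FPKM (log2 fold change 2.56, adjusted p = 0.00123 from limma), while its partner *Krt8* was at 0 in all 4 libraries. The part of these differences in the change of the contractile genes was not tested.

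The 5 calls together needed all 4 libraries. Without WT 1 or without WT 2 limma called 0 of the 10 genes, with 7 and 8 at an unadjusted p under 0.05, and without either TG library it called 3, *Actg2*, *Cnn1* and *Lmod1*. In these fits 1 genotype has a single library, which is assumed to vary like the others, and *Actg2* kept a log2 fold change between -2.02 and -1.84 over all 13 alternative settings.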

How the data were processed

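Polyadenylated RNA of 2 WT and 2 TG libraries was sequenced from both ends with strand kept. Alignment (mm10) and counting per gene were done by the authors in Rsubread, and they deposited FPKM values, 1 column per library, made with an R package for the conversion of counts. Per the labels the submitters' processing notes also name DESeq. Versions, annotation and strand setting are not given in the sources used here.

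TG was compared with WT by limma (version 3.58.1, R 4.3.3) with a moderated variance that follows the mean level, on log2(FPKM + 0.5). The 11524 genes whose mean reached 0.5 FPKM were tested and Benjamini-Hochberg adjusted together. A fold change on this scale understates the change of low genes. A call needed an adjusted p under 0.01 and a change of 1 log2 unit or more. Low FPKM values of a gene stood in whole-number ratios between libraries, from which total reads per library followed, and whole reads for 15526 of the 15530 genes above 0. The recovered reads of all genes made up 98.00% to 98.09% of the totals. Intervals and limits from reads cover counting error only.

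The members and gene lists were chosen with earlier results of these data known. The genes named are the 10 members, *Xist*, and those genes of the lists that were called, that differed between the genotypes in all 4 values, or that are the main paralog of a member, with the cell type markers. Genes named outside this rule, such as *Cald1*, *Smtn*, *Myocd*, *Vcl*, *Rock1*, *Rock2*, *Tln2*, *Pcsk7* and *Car9*, were chosen after their values were seen. The alternatives were other pseudocounts and filters, no variance trend, 2 scalings, a replicate block, each library left out, voom on the recovered reads, and an adjusted p under 0.05. Isoform shares were compared by an exact permutation test. Coordinates and promoters are from RefSeq on GRCm38, the assembly of mm10 (Python 3.11.15).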

Additional observations from a re-analysis of the deposited data

How the results depend on the processing

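The number of contractile genes called lower was 5, and it was 5 or 6 with a pseudocount of 1 or 0.1, a mean FPKM of at least 1, upper-quartile scaling, quantile normalization, voom on the recovered reads and an adjusted p under 0.05. It was 0 when all 15530 genes above 0 were tested, 0 without the variance trend and 0 with the replicate number as a block, against 8, 9 and 9 genes at an unadjusted p under 0.05. These settings called 1, 6 and 8 of all genes lower, against 54, and voom called 149. Leaving out 1 library gave 0 to 3 of the 10 genes, and 1 and 2 of all genes without WT 1 and WT 2. The cause was not tested. The log2 fold change was below 0 for all 10 genes under all 13 alternatives. As both TG values of each gene lay below both WT values, only the 2 scalings and voom could have turned a sign. Whether WT and TG libraries of the same number were handled together is not stated. Libraries of the same number had a correlation of -0.0276 in their deviations from the genotype mean, which cannot settle it. With each library left out, the difference in isoform share ranged from -20.9 to -17.5 points for *Acta2* and *Actg2* among actins, -24.5 to -19.2 for *Cnn1*, -15.5 to -10.0 for *Myl9*, -9.13 to -5.27 for *Tagln* and -4.04 to -0.822 for *Tpm1* and *Tpm2*. *Myh11* made up 0.0161% of myosin II heavy chain FPKM in WT and 0.0547% in TG, a difference of 0.00136 to 0.0757 points. Voom gave *Tagln* an adjusted p of 0.00117 but a log2 fold change of -0.76, too small for a call. Nor did voom call *Ppp1r14a* (adjusted p = 0.014), and it called *Mcam* and *Pdgfrb*, which limma did not. *Mylk* rested on 172 to 537 reads per library and *Ppp1r14a* on 23 to 161.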
